A study of Gallus gallus with 24 samples.

Results

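Transporters of the solute carrier (SLC) families that move amino acids, their derivatives and neurotransmitters were described in cultures of the retinal pigment epithelium (RPE) of the chick. Genes were taken whose symbol on the array platform belongs to families SLC1, SLC3, SLC6, SLC7, SLC15, SLC17, SLC32, SLC36, SLC38 or SLC43, among probe sets that carry a single symbol. The rule found 53 genes, of 13009 genes that have a probe set with 1 symbol. These genes have 128 probe sets in all, of 38439 used, and the probe set with the highest mean log2 signal over the 24 arrays stood for its gene. SLC1A5, SLC3A2 and SLC7A8 had no probe set under these symbols alone, and were not analysed here. RPE had been isolated from White Leghorn embryos on embryonic day 7 (E7) or 14 (E14) and grown on filters, with separate apical and basal chambers. All cultures had SF2, which holds bovine pituitary extract, in the basal chamber. The apical chamber held SF3, a serum-free medium, or rcSF3, which is SF3 conditioned by neural retina of E14 embryos. Serum was added to the basal chamber of some cultures. The 4 media at 2 ages (SF3, SF3 with serum, rcSF3 with serum, and rcSF3) gave 8 groups of 3 arrays, with 1 array for each biologic repeat, and a repeat was RNA pooled from filters plated together. The same conditioned medium of older retina served both ages, and 1 lot of serum served all arrays. The labels spell out 3 of the media. The remaining code, CM with SER written again after it, was taken to mean conditioned SF3 plus serum.

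The RPE lies between the choroidal blood supply and the photoreceptors. Once its tight junctions are functional, amino acids and related nutrients that pass from the blood to the outer retina cross this monolayer largely on carriers. SLC6 carriers are driven by sodium and chloride and carry taurine, creatine, glycine, betaine, proline or monoamines. SLC1 holds the glutamate transporters and the neutral amino acid exchangers, SLC7 the cationic carriers and the light chains that pair with an SLC3 heavy chain, and SLC38 the sodium-coupled carriers of glutamine and alanine. Members of SLC15, SLC17, SLC36 and SLC38 also work in the membranes of lysosomes or synaptic vesicles.

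The deposited values are signals in arbitrary units, with array medians of 89.3 to 121. Correlations of log2 signals within groups were 0.967 to 0.984. All 14 markers of RPE were above the signal filter, which was a mean of 100 over the arrays of an age. The sum of these 14 at E7 was 189063 to 204098 in SF3 and 233511 to 233951 in rcSF3. With serum it was 194319 to 209731 in SF3 and 204317 to 227133 in rcSF3. At E14 it was 222863 to 241947 in SF3 and 251352 to 266238 in rcSF3. With serum at E14 it was 206283 to 229424 and 201180.4 to 232673. Of 10 fibroblast markers, 7 were above the filter. Each sum in this paragraph was taken over all measured markers of a list, those under the filter included. The sum of the 10 fibroblast markers moved with the media. At E7 it was 5647 to 9253 in SF3, 1835 to 3848 in rcSF3, 12103 to 20112 in SF3 plus serum, and 5825 to 8304 in rcSF3 plus serum. At E14 it was 5641 to 7381, 2521 to 3935, 13111 to 13373 and 5767 to 12151 in the same order. Of 11 measured photoreceptor and neuron markers, 5 were above the filter. The sum of all 11 at E7 was 6909 to 7852 in SF3 against 3907 to 5024 in rcSF3. It was 4604 to 5689.7 in SF3 plus serum, and 2503 to 2858 in rcSF3 plus serum. Of the 5 genes above the filter, rcSF3 increased 1 and decreased 3 at E7, while serum increased 1 and decreased 0. Of all probe sets at E7, rcSF3 increased 13.6% and decreased 13.9%, and serum in SF3 increased 17.6% and decreased 21.6%. These shares stand beside all marker counts of this paragraph. The lists are too short to read the counts as a result about cell types. Of 7 Mueller glia markers 4 were above the filter. The sum of all 7 at E7 was 26118 to 30136 in SF3 and 14628 to 17547 in rcSF3. It was 22579.9 to 24612 in SF3 plus serum, and 14748 to 17044 in rcSF3 plus serum. At E7 rcSF3 increased 1 and decreased 2 of the 4 genes above the filter, and serum increased 2 and decreased 2. Of 8 macrophage markers 2 were above the filter at E7, 1 higher and 1 lower with each of rcSF3 and serum. The sum of all 8 was 6532 to 7839 in SF3 and at most 5448 in the other E7 media. Of 8 endothelial markers 2 were above the filter, both higher at E7 with rcSF3 and with serum. The sum of all 8 was 1079.9 to 1197 in SF3 and 1506 to 2392 in the other E7 media. This list includes CLDN5, a tight junction gene that the authors report in RPE itself, with an increase in E7 cultures in rcSF3. The log2 ratio of the actin 3′ to 5′ control probes was also lower with serum, at 0.37 ± 0.06 (SD, n = 3) against 0.75 ± 0.12 in SF3 at E7, and 0.40 ± 0.07 against 0.75 ± 0.03 at E14. The same ratio for GAPDH was not lower with serum. It was -0.09 ± 0.03 against -0.14 ± 0.02 in SF3 at E7, and -0.13 ± 0.04 against -0.13 ± 0.01 at E14. The part of the shifts in marker sums and control ratios in the transporter results was not tested. In cultures with several cell types, fewer cells of a type and less RNA per cell cannot be told apart.

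Of the 53 transporter genes, 34 passed the filter at E7 and 34 at E14, 32 at both ages and 36 at either. In family SLC1, 5 of 6 passed at each age, in SLC6 7 of 13, in SLC38 7 of 8 at E7 and 6 at E14, and in SLC7 8 of 12 at E7 and 9 at E14. Of the peptide transporters of SLC15, only SLC15A4 of 4 passed, and both genes of SLC43 passed. SLC3A1 and SLC38A7 passed at E7 and not at E14, and SLC7A7 and SLC36A4 at E14 and not at E7. The 17 genes under the filter at both ages included several classic carriers of neurons and glia. SLC1A3, the glial glutamate transporter, measured 4.04 to 63.9 over the 24 arrays. SLC32A1, which loads GABA and glycine into synaptic vesicles, measured 2.52 to 70.7, and the vesicular glutamate transporters SLC17A6 and SLC17A8 measured 2.3 to 54 and 1.24 to 55.1. The noradrenaline transporter SLC6A2 and the neuronal glycine transporter SLC6A5 measured 1.64 to 36.1 and 15.9 to 92.2. None of these 6 genes reached a signal of 100 on any array. The others under the filter were SLC6A7, SLC6A11, SLC6A17, SLC6A19, SLC7A2, SLC7A9, SLC7A13, SLC15A1, SLC15A2, SLC15A5 and SLC38A4. These probe sets were dim, which does not show that a transcript was absent.

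**Figure D1:**
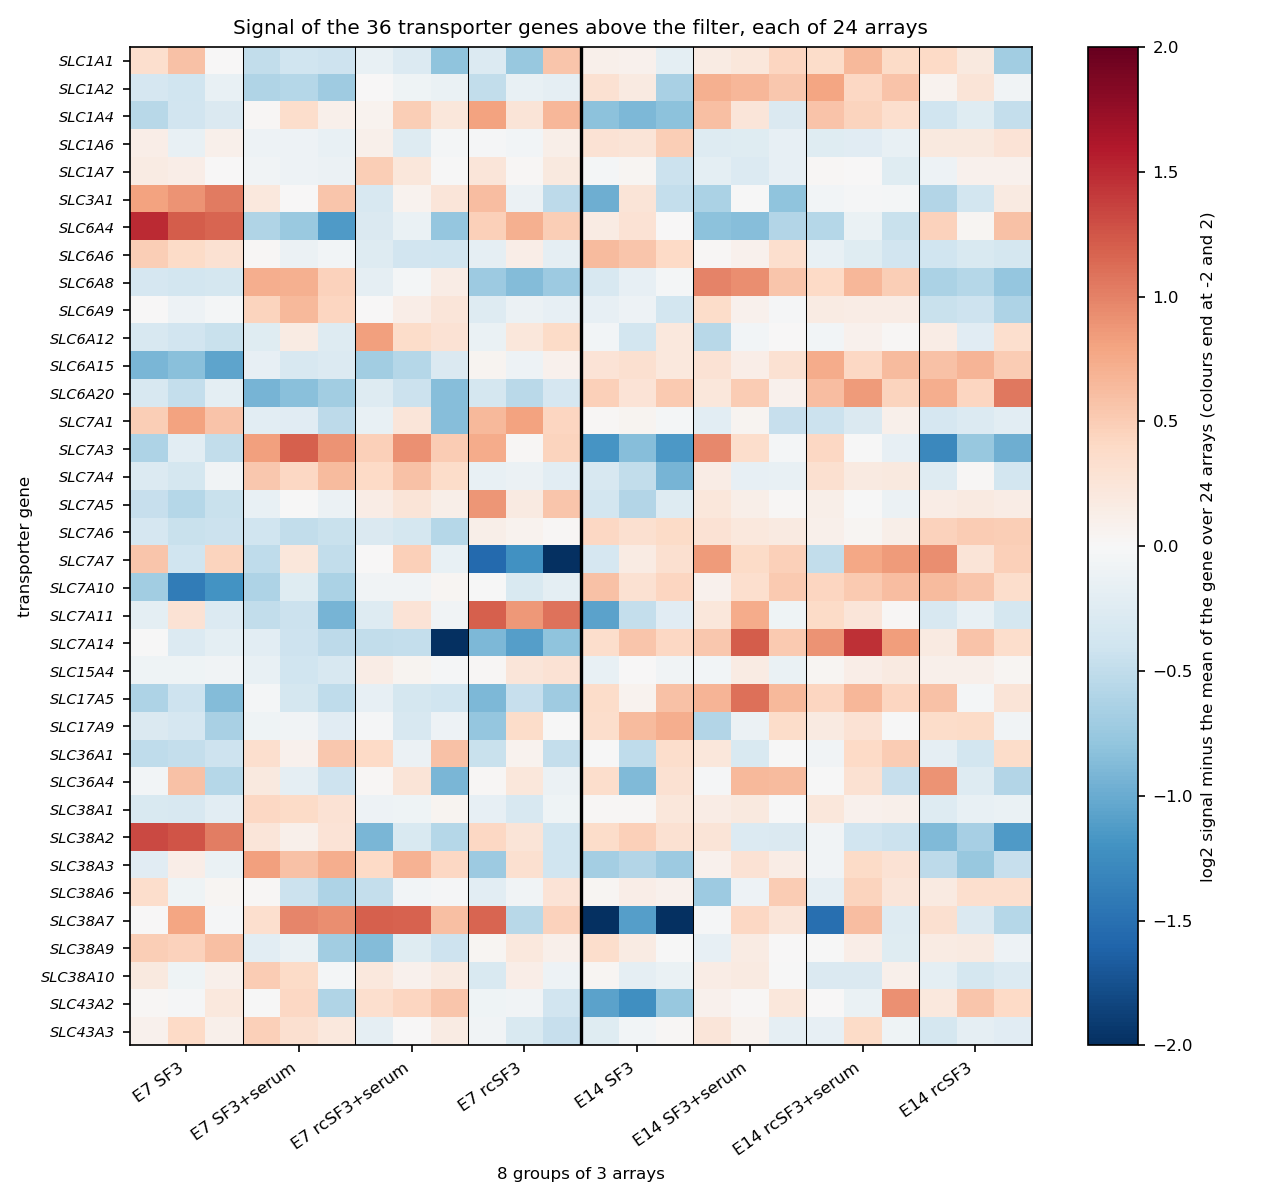
Log2 signal of the 36 transporter genes above the filter at either age, on each of 24 arrays, as the difference from the mean of the gene over all arrays (blue lower, red higher, with colours ending at -2 and 2). Columns are the 8 groups of 3 arrays, E7 on the left of the heavy line and E14 on the right. SLC6A15, SLC6A20, SLC7A10 and SLC17A5 were lower on all E7 than on all E14 arrays, and SLC6A4 and SLC38A2 were highest in E7 SF3.

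Across the 4 media, 24 of 34 genes (70.6%) differed at E7 and 17 of 34 (50%) at E14 by the moderated F test of limma with an adjusted p under 0.05, while 62.3% of all probe sets tested differed at E7 and 41% at E14. With rcSF3 at E7, 8 genes increased and 6 decreased of 34 (41.2%), while 13.6% of all probe sets increased and 13.9% decreased (27.5%). At E14, 3 increased and 4 decreased (20.6%), against 4.94% and 4.92% of all probe sets (9.86%), and this count of 7 was 4 without E14 SF3 replicate 2, E14 SF3 replicate 3 or E14 rcSF3 replicate 3. With serum in SF3, 11 increased and 6 decreased at E7 (50%), against 17.6% and 21.6% (39.2%). At E14, 10 increased and 4 decreased with serum (41.2%), against 12.1% and 12.2% (24.3%). The median log2 change of the 34 genes and of all probe sets was -0.01 against -0.02 for rcSF3 and 0.05 against -0.04 for serum at E7, and 0.08 against 0.03 and 0.10 against -0.02 at E14. When serum was already present, rcSF3 increased 5 and decreased 5 at E7 (29.4%), against 11.5% and 10.2% (21.7%), and decreased 1 at E14 (2.94%), where 1.13% of all probe sets increased and 1.78% decreased (2.91%). Serum added to rcSF3 increased 5 and decreased 9 at E7 (41.2%), against 15.1% and 16.7% (31.7%), and increased 8 and decreased 3 at E14 (32.4%), against 11.6% and 11.8% (23.4%). Comparisons of media at 1 age share arrays, so their values are given side by side and not set against each other. Changes below are log2 differences between groups of 3 arrays ± SE, with the SE from the spread in all groups of the fit.

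**Figure D2:**
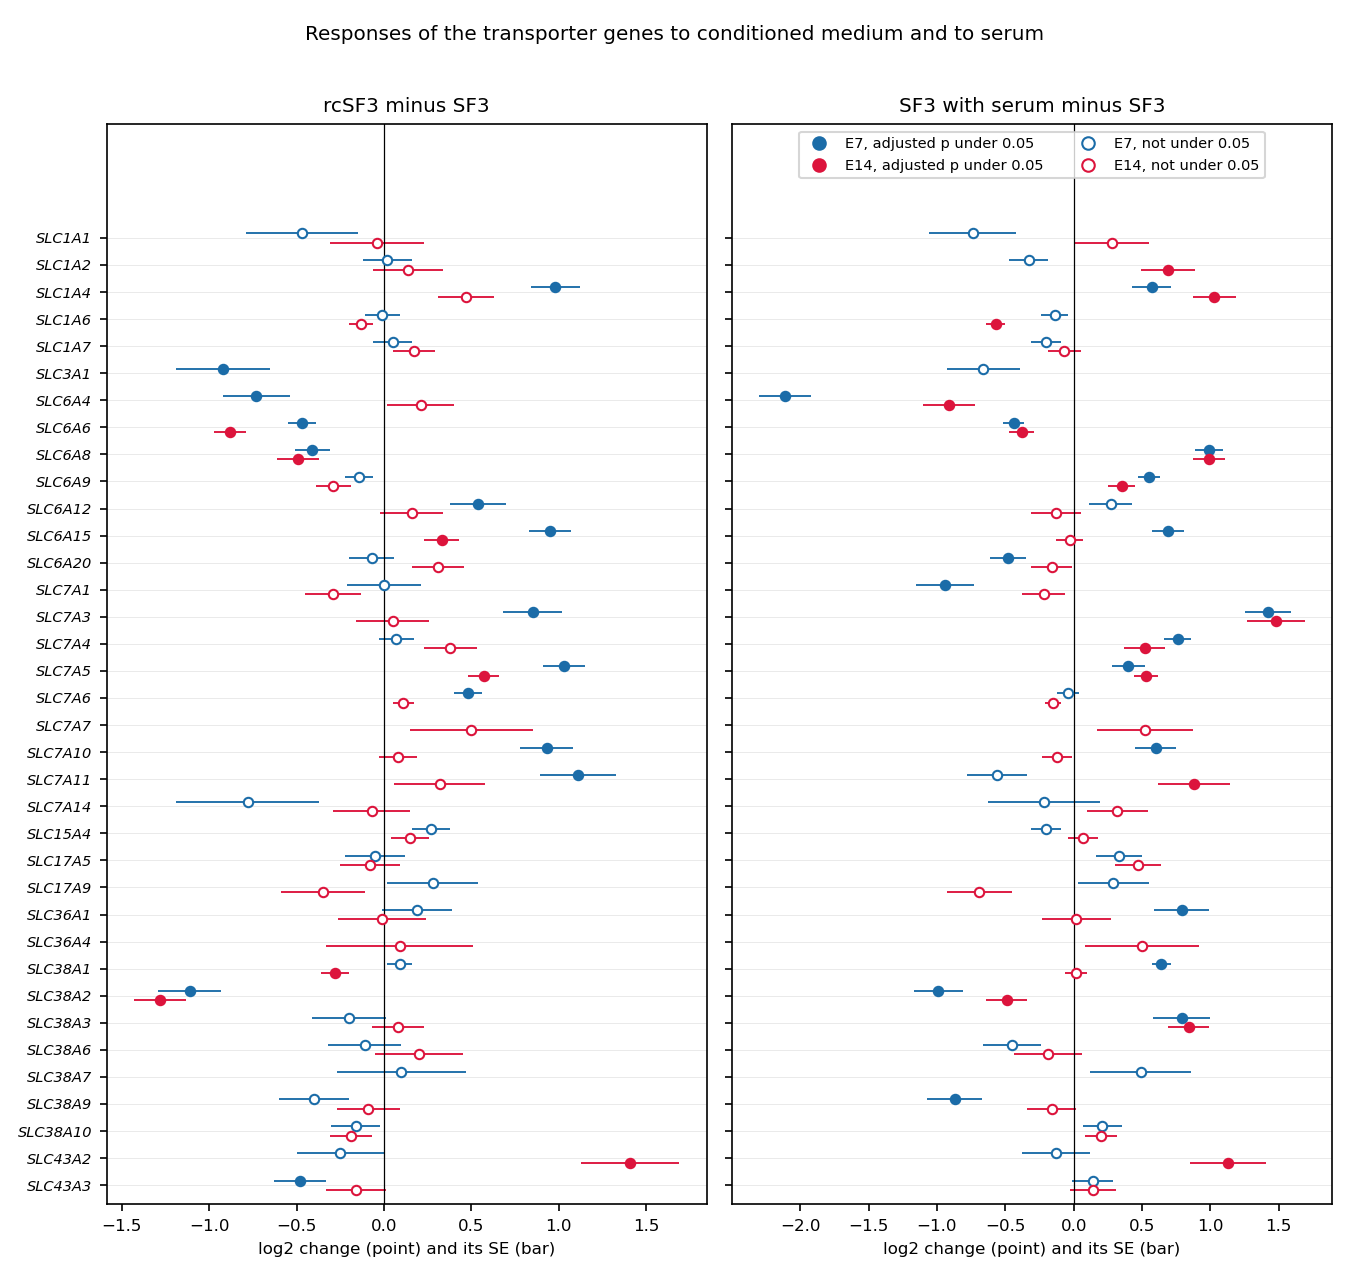
Log2 change with rcSF3 (left) and with serum (right), each against SF3, for the transporter genes that passed the filter at E7 (blue) or E14 (red). Points are changes with the SE as a bar, filled where the adjusted p was under 0.05. SLC38A2, SLC6A6 and SLC6A8 lie left of 0 with rcSF3 at both ages, and SLC7A3 and SLC6A8 lie far to the right with serum at both ages.

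Among the carriers of osmolytes and energy metabolites, taurine and creatine transporters changed with both stimuli and at both ages. SLC6A6, the taurine transporter, was highest in SF3. SLC6A6 signals in E7 cultures were 15539.9, 14417 and 13582 (SF3), 9671, 12104 and 9706 (rcSF3), 11177, 10183 and 10641 (SF3 with serum), and 9150.1, 8401 and 8387 (rcSF3 with serum). SLC6A6 signals in E14 cultures were 17025, 16244 and 14566 (SF3), 8382, 8941 and 8613 (rcSF3), 11214, 11617 and 13891 (SF3 with serum), and 9891, 9299.8 and 8421 (rcSF3 with serum). All arrays in SF3 were above all arrays in the other 3 media of their age, and at E14 all arrays with rcSF3 were also below all arrays with serum alone. rcSF3 decreased SLC6A6, with log2 changes of -0.47 ± 0.08 at E7 and -0.88 ± 0.09 at E14 (adjusted p = 0.00072 and 3.9e-05). The difference between these responses was -0.41 ± 0.13, adjusted p = 0.064. Serum decreased it, with log2 changes of -0.44 ± 0.08 at E7 and -0.38 ± 0.09 at E14 (adjusted p = 0.00088 and 0.0055). It was the one gene of the 34 that rcSF3 changed at E14 when serum was present (-0.41 ± 0.09, adjusted p = 0.024), and this call was lost without E14 SF3 with serum replicate 3 (0.084), E14 rcSF3 with serum replicate 2 (0.097) or E14 rcSF3 with serum replicate 3 (0.093). With the mean of all its probe sets the change was 0.23. In SF3, its 2 other probe sets above the filter had negative changes with rcSF3 at each age, and 1 of them passed the test.

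SLC6A8, the creatine transporter, was increased by serum and decreased by rcSF3. SLC6A8 signals in E7 cultures were 1354, 1321 and 1331 (SF3), 1033, 941 and 1036 (rcSF3), 2825, 2800.2 and 2362 (SF3 with serum), and 1499.7, 1665 and 1887 (rcSF3 with serum). SLC6A8 signals in E14 cultures were 1373, 1532 and 1670.3 (SF3), 1103, 1152 and 997 (rcSF3), 3407, 3237 and 2508 (SF3 with serum), and 2251, 2697 and 2390.1 (rcSF3 with serum). At E7 no array of one medium overlapped with another medium, and rcSF3 was lowest and SF3 with serum highest. At E14, rcSF3 with serum overlapped with SF3 with serum, and the other media were apart. Serum increased SLC6A8 by 0.99 ± 0.10 at E7 and 0.99 ± 0.12 at E14 (adjusted p = 4.7e-06 and 5.3e-05), and added to rcSF3 it increased it by 0.74 ± 0.10 and 1.17 ± 0.12 (8.5e-05 and 2e-05). rcSF3 alone decreased it, with log2 changes of -0.41 ± 0.10 at E7 and -0.49 ± 0.12 at E14 (0.0056 and 0.017). The E14 decrease missed the threshold without E14 SF3 replicate 2 (0.055), E14 SF3 replicate 3 (0.063) or E14 rcSF3 replicate 3 (0.068). Of the genes that make creatine or phosphorylate it, 3 passed the filter. With serum all 3 passed the test at E7 (2 increases and 1 decrease, against 39.2% of all probe sets) and 1 at E14 (against 24.3%), while with rcSF3 2 decreased at E7 (against 27.5%) and 1 increased at E14 (against 9.86%). CKMT1B, a mitochondrial creatine kinase, increased with serum by 4.79 ± 0.19 at E7 and 4.05 ± 0.18 at E14 (adjusted p = 9.3e-10 and 5.5e-09), the cytosolic kinase CKB changed by -0.44 ± 0.06 at E7 (2.9e-05), and GAMT, which makes creatine, by 1.17 ± 0.22 at E7 (0.00083).

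SLC6A9, the glycine transporter that clears glycine around synapses, followed serum. SLC6A9 signals in E7 cultures were 2179.8, 2019.8 and 2112 (SF3), 1819, 1992 and 1928 (rcSF3), 2966, 3384 and 2923 (SF3 with serum), and 2185, 2388 and 2575 (rcSF3 with serum). SLC6A9 signals in E14 cultures were 1933, 2019 and 1688 (SF3), 1587, 1620.2 and 1412 (rcSF3), 2785, 2314 and 2123 (SF3 with serum), and 2426, 2407 and 2399 (rcSF3 with serum). Arrays in SF3 with serum were above those in SF3 and in rcSF3 at both ages. The increase with serum was 0.55 ± 0.08, adjusted p = 0.00015 at E7 and 0.35 ± 0.10, adjusted p = 0.023 at E14, where it was lost without E14 SF3 replicate 3 (0.096) or E14 SF3 with serum replicate 1 (0.11). With rcSF3 alone the changes were -0.14 ± 0.08, adjusted p = 0.26 at E7 and -0.29 ± 0.10, adjusted p = 0.1 at E14. SLC6A12, a betaine and GABA transporter that takes part in the response to osmotic stress, increased with rcSF3 at E7 from 687, 655 and 633 to 784, 1003 and 1120.1, with no overlap. The increase of 0.54 ± 0.16, adjusted p = 0.019 was lost without E7 SF3 replicate 2 (0.051), E7 SF3 replicate 3 (0.06), E7 rcSF3 replicate 2 (0.057) or E7 rcSF3 replicate 3 (0.088), and with the mean of its 6 probe sets the change was -0.11. SLC6A20, which carries proline, did not pass the test for rcSF3 at either age (-0.07 ± 0.13, adjusted p = 0.74 at E7 and 0.31 ± 0.15, adjusted p = 0.2 at E14). Serum decreased it at E7, from 2062, 1849.5 and 2245 to 1352, 1450 and 1595 (-0.48 ± 0.13, adjusted p = 0.0092), and its 2 other probe sets above the filter also decreased.

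The serotonin transporter SLC6A4, which takes serotonin back into cells, had the largest decrease with serum of the 34 genes at E7. SLC6A4 signals in E7 cultures were 699, 575 and 557 (SF3), 347, 407 and 351 (rcSF3), 164, 148 and 113 (SF3 with serum), and 203, 226 and 145 (rcSF3 with serum). SLC6A4 signals in E14 cultures were 279, 302 and 250.4 (SF3), 343, 255 and 371 (rcSF3), 141, 138 and 165 (SF3 with serum), and 167, 226 and 182 (rcSF3 with serum). The 3 arrays of E7 SF3 were above all other arrays of the study, and arrays with serum were below those without it at each age. The summed photoreceptor and neuron, Mueller glia and macrophage markers were each highest in E7 SF3 as well, and their part in this was not tested. Serum decreased SLC6A4, with log2 changes of -2.11 ± 0.19 at E7 and -0.91 ± 0.19 at E14 (adjusted p = 2.3e-06 and 0.0033). rcSF3 decreased it at E7 (-0.73 ± 0.19, adjusted p = 0.01), and at E14 the change was 0.21 ± 0.19, adjusted p = 0.56. The E7 call for rcSF3 was lost without E7 SF3 replicate 1 (0.05), where the value was just over the threshold before rounding. Serum added to rcSF3 decreased it, with log2 changes of -0.96 ± 0.19 at E7 and -0.75 ± 0.19 at E14 (0.0016 and 0.011), the latter not without E14 rcSF3 replicate 3 (0.053). Of 4 other carriers of neurotransmitters above the filter, 3 changed with rcSF3 at E7 (2 increases, against 27.5% of all probe sets in either direction) and 3 at E14 (1 increase, against 9.86%). The vesicular monoamine transporter SLC18A2 increased with rcSF3 by 3.23 ± 0.36 at E7 and 0.94 ± 0.21 at E14 (1.1e-05 and 0.013), while the plasma membrane monoamine transporter SLC29A4 decreased, with changes of -1.52 ± 0.29 and -1.26 ± 0.18 (0.0014 and 0.00069).

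Of the sodium-driven glutamate transporters SLC1A1, SLC1A2, SLC1A6 and SLC1A7, none passed the test for rcSF3 in SF3 at either age, and none passed it for serum at E7. SLC1A1 stayed near the filter, at 155, 183 and 123 in SF3 and 87.2, 92.7 and 92.3 with serum at E7 (-0.74 ± 0.32, adjusted p = 0.077), with a 95% confidence interval of -1.42 to -0.06. At E14, serum increased SLC1A2, the main glutamate transporter of astrocytes, from 442, 407 and 228 to 587, 564 and 519.7. The arrays did not overlap (0.69 ± 0.20, adjusted p = 0.023), and the call was lost without E14 SF3 replicate 3 (0.087), E14 SF3 with serum replicate 1 (0.07) or E14 SF3 with serum replicate 2 (0.058). SLC1A6 decreased from 4876, 4753 and 5591 to 3324, 3361 and 3549 (-0.57 ± 0.07, adjusted p = 0.0001), and its 2 other probe sets above the filter decreased too. SLC1A6 is best known from Purkinje cells of the cerebellum. Of 9 enzymes of glutamate, GABA and glycine metabolism above the filter, rcSF3 increased 4 at E7 (44.4%, against 27.5% of all probe sets), among them the alanine aminotransferase GPT2 (1.28 ± 0.26, adjusted p = 0.0019). Serum increased 2 and decreased 1 at E7 (33.3%), below the 39.2% of all probe sets. At E14 rcSF3 increased 1 (11.1%, against 9.86%) and serum 2 (22.2%, against 24.3%), near the background. With serum GPT2 increased by 0.98 ± 0.26 at E7 and 1.50 ± 0.27 at E14 (0.0084 and 0.0011).

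**Figure D3:**
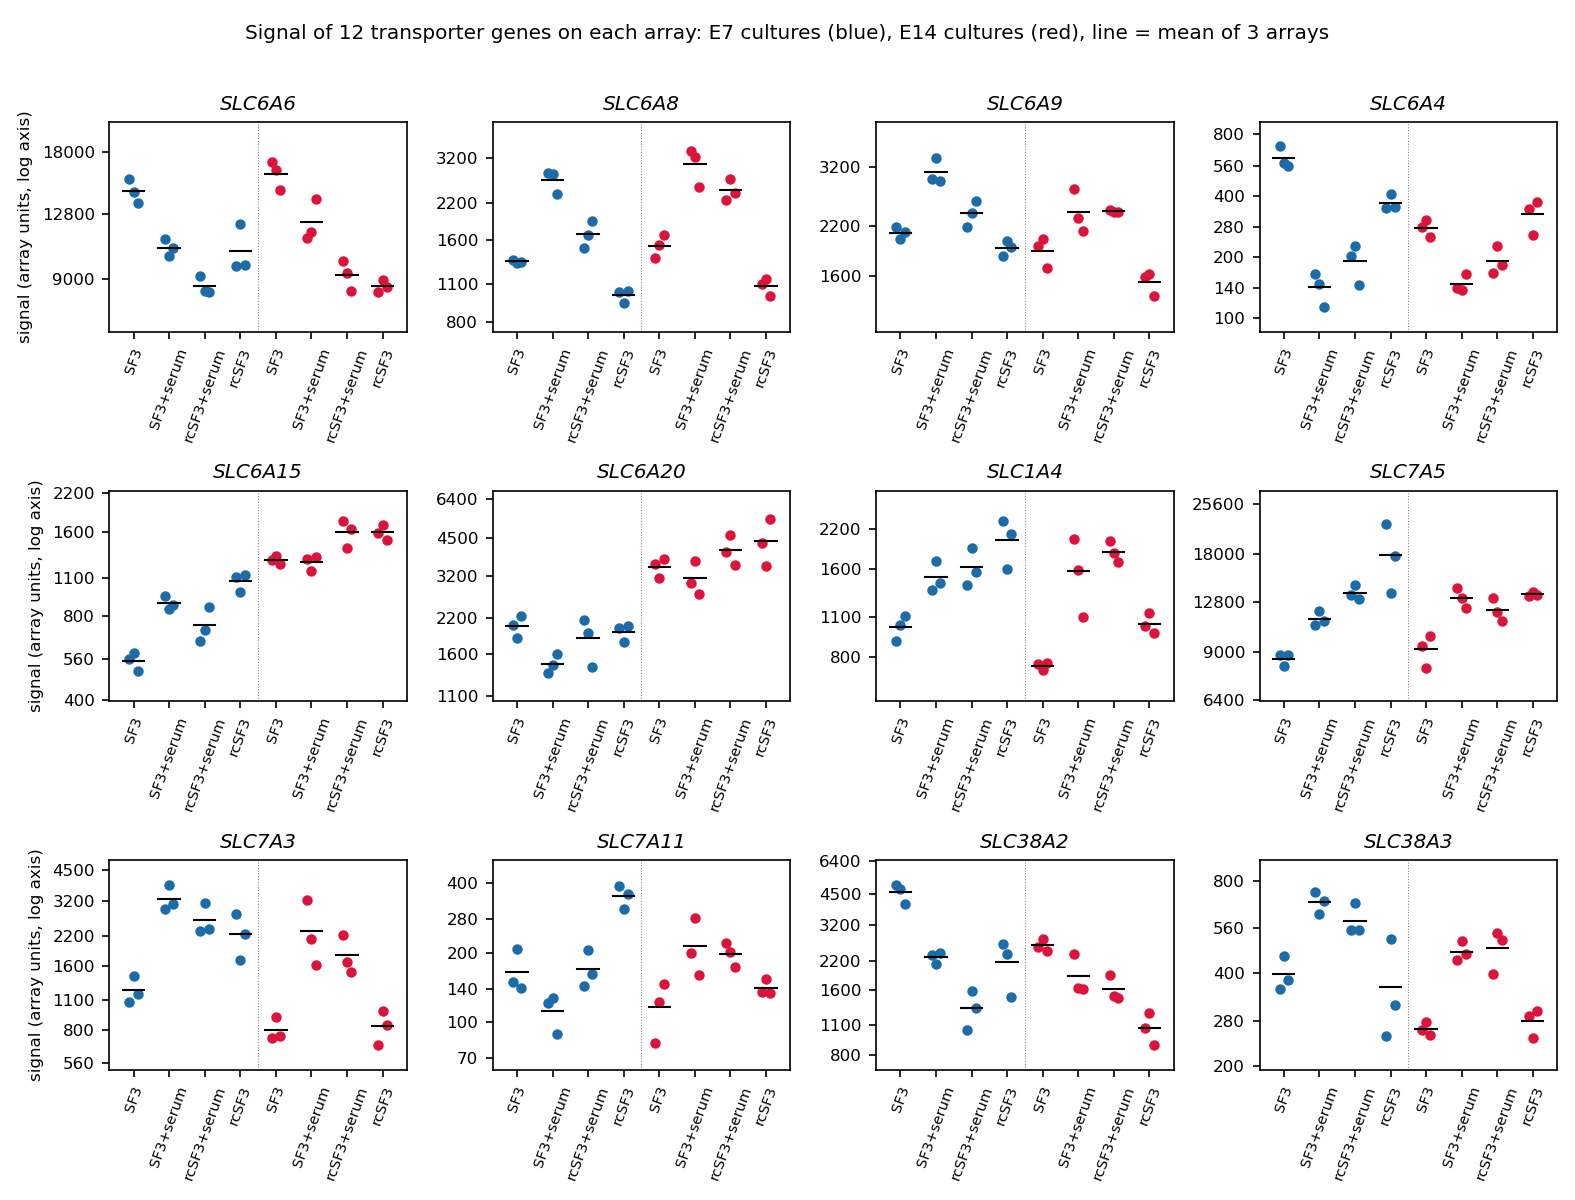
Signal on each of 24 arrays (log axis, array units) of 12 transporter genes in 4 media, for E7 (blue) and E14 (red) cultures, with a line at the mean of 3 arrays. SLC6A6 and SLC38A2 were highest in SF3, SLC6A8 rose with serum and fell with rcSF3, SLC7A11 at E7 was highest in rcSF3, and every E14 array of SLC6A15 and SLC6A20 was above every E7 array.

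Several carriers of neutral amino acids were lowest in SF3. SLC7A5 is the large neutral amino acid transporter (LAT1), which brings leucine, phenylalanine and tyrosine into cells. SLC7A5 signals in E7 cultures were 8779.5, 8142 and 8838 (SF3), 22255, 13683 and 17762 (rcSF3), 10859.5, 12014 and 11181 (SF3 with serum), and 13422, 14487 and 13093 (rcSF3 with serum). SLC7A5 signals in E14 cultures were 9362, 8053 and 10066 (SF3), 13403, 13756 and 13443 (rcSF3), 14146, 13185 and 12258 (SF3 with serum), and 13143, 11970.4 and 11205 (rcSF3 with serum). At both ages all arrays in SF3 were below all arrays in the other media. rcSF3 increased SLC7A5 by 1.03 ± 0.12 at E7 and 0.57 ± 0.09 at E14 (adjusted p = 2e-05 and 0.00083), and serum by 0.40 ± 0.12 and 0.53 ± 0.09 (0.017 and 0.00048). At E7 the serum call was lost without E7 SF3 replicate 2 (0.059) or E7 SF3 with serum replicate 2 (0.061). The 1 other probe set of SLC7A5 above the filter increased and passed the test in all 4 of these comparisons. The serum call at E7 was also lost with no variance trend (adjusted p = 0.052) and with the unmoderated analysis of variance (0.073). With the mean of all 4 of its probe sets, dim ones included, the change with serum was 0.03 at E7 (adjusted p = 0.93) and 0.31 at E14 (0.38), and with rcSF3 at E14 it was -0.09 (0.87).

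SLC1A4, an exchanger of alanine, serine and cysteine, was also lowest in SF3. SLC1A4 signals in E7 cultures were 909, 1032 and 1102 (SF3), 2338, 1603 and 2123 (rcSF3), 1362, 1713 and 1440.4 (SF3 with serum), and 1413, 1893 and 1569 (rcSF3 with serum). SLC1A4 signals in E14 cultures were 757, 719 and 761 (SF3), 1019, 1132 and 962 (rcSF3), 2041, 1588 and 1097 (SF3 with serum), and 2003, 1818 and 1697 (rcSF3 with serum). The SF3 arrays were lowest at each age, with no overlap with the other media. rcSF3 increased SLC1A4 by 0.98 ± 0.14, adjusted p = 0.00014 at E7, and at E14 the change was 0.47 ± 0.16, adjusted p = 0.084. Serum increased it by 0.57 ± 0.14 at E7 and 1.03 ± 0.16 at E14 (0.0061 and 0.00043), and its other probe set also increased and passed the test with serum at both ages.

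SLC6A15, which carries branched-chain amino acids and proline, rose with both stimuli at E7. SLC6A15 signals in E7 cultures were 563, 591 and 509 (SF3), 1101, 980.3 and 1124 (rcSF3), 944, 849 and 878 (SF3 with serum), and 653, 713 and 866 (rcSF3 with serum). SLC6A15 signals in E14 cultures were 1275, 1316 and 1227 (SF3), 1589, 1694 and 1504 (rcSF3), 1287, 1160.3 and 1299.8 (SF3 with serum), and 1759, 1403 and 1635 (rcSF3 with serum). At E7 the 3 arrays in SF3 were below all others, and at E14 SF3 and SF3 with serum overlapped. The increase with rcSF3 was 0.95 ± 0.12, adjusted p = 2.7e-05 at E7 and 0.33 ± 0.10, adjusted p = 0.048 at E14. The E14 call was lost without any 1 of the 6 arrays (adjusted p = 0.063 to 0.15). Serum increased it by 0.69 ± 0.12, adjusted p = 0.00034 at E7, and at E14 the change was -0.03 ± 0.10, adjusted p = 0.86. Of its 3 other probe sets above the filter, all had positive changes with rcSF3 at E7 and 1 passed the test, while with serum 2 had positive changes and none passed. The mean of all probe sets of SLC6A15 changed by 0.35 with serum at E7 (adjusted p = 0.085) and by 0.46 with rcSF3 at E14 (0.065).

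SLC7A10, which exchanges small neutral amino acids including D-serine, measured 1378, 850.1 and 977 in E7 SF3, 1451, 1894 and 1447 with serum and 2216, 1814 and 1954 in rcSF3. The groups with serum and with rcSF3 were above SF3 (0.60 ± 0.15, adjusted p = 0.006 and 0.93 ± 0.15, adjusted p = 0.00034). At E14 the changes were -0.12 ± 0.11, adjusted p = 0.47 and 0.08 ± 0.11, adjusted p = 0.73. SLC7A6, which exchanges cationic for neutral amino acids, increased with rcSF3 at E7 from 3992, 3716 and 3744 to 5516, 5309.6 and 5171 (0.48 ± 0.08, adjusted p = 0.00025), and serum added to rcSF3 decreased it (-0.47 ± 0.08, adjusted p = 0.00035 at E7 and -0.40 ± 0.06, adjusted p = 0.00046 at E14). SLC43A2, a uniporter of branched-chain amino acids, was near the filter. It measured 64.4, 58.1 and 79.8 in E14 SF3, 143, 138 and 158 with serum and 157, 199 and 178 in rcSF3. All SF3 arrays were under 100, and the changes with rcSF3 and with serum (1.41 ± 0.28, adjusted p = 0.0054 and 1.13 ± 0.28, adjusted p = 0.009) were 0.83 (adjusted p = 0.035) and 0.55 (adjusted p = 0.1) with signals under 100 raised to 100. SLC43A3, a carrier of purine nucleobases, decreased with rcSF3 at E7 (-0.48 ± 0.15, adjusted p = 0.026), which was lost without E7 SF3 replicate 2 (0.12), E7 rcSF3 replicate 2 (0.06) or E7 rcSF3 replicate 3 (0.1).

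SLC7A3, a carrier of arginine and lysine, had the largest increase with serum of the 34 genes at both ages. SLC7A3 signals in E7 cultures were 1086, 1436 and 1181 (SF3), 2799.9, 1694 and 2262 (rcSF3), 2938, 3822 and 3125 (SF3 with serum), and 2332, 3148 and 2375 (rcSF3 with serum). SLC7A3 signals in E14 cultures were 736, 925 and 752 (SF3), 683, 985 and 844 (rcSF3), 3259, 2130.3 and 1616 (SF3 with serum), and 2219.8, 1658 and 1493 (rcSF3 with serum). Arrays in SF3 with serum were above those in SF3 at each age, and at E14 SF3 and rcSF3 overlapped and were below both media with serum. Serum increased SLC7A3 by 1.42 ± 0.17 at E7 and 1.48 ± 0.21 at E14 (adjusted p = 2.1e-05 and 0.00022). rcSF3 increased it at E7 (0.85 ± 0.17, adjusted p = 0.0017), and at E14 the change was 0.05 ± 0.21, adjusted p = 0.92. Of its 4 other probe sets above the filter, 3 increased and passed the test with serum at both ages, and 1 changed by -0.06 at E7 and -0.62 at E14 without passing it. The mean of all probe sets of SLC7A3 changed by 0.40 with rcSF3 at E7 (adjusted p = 0.23).

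SLC7A1, the widely expressed cationic carrier, went the other way at E7. It measured 717, 889.8 and 754 in SF3, 441, 438 and 355 with serum, 463, 605 and 282 in rcSF3 with serum and 796, 887 and 686 in rcSF3. Both media with serum were below both without it. The decrease was -0.94 ± 0.21, adjusted p = 0.0029 in SF3 and -0.87 ± 0.21, adjusted p = 0.0063 in rcSF3, and at E14 the changes were -0.22 ± 0.16, adjusted p = 0.34 and 0.08 ± 0.16, adjusted p = 0.77. As the mean of all its probe sets, SLC7A1 changed at E7 by -0.58 (adjusted p = 0.38) and -0.72 (0.29). SLC7A4, a relative of the cationic carriers whose substrate is not settled, increased with serum from 754, 714 and 867 to 1321, 1208 and 1412 at E7 (0.76 ± 0.10, adjusted p = 5.5e-05) and from 732, 648 and 480.1 to 1009.7, 814 and 818 at E14 (0.52 ± 0.15, adjusted p = 0.022). The groups were apart at both ages, and the E14 call was lost without E14 SF3 replicate 3 (0.099) or E14 SF3 with serum replicate 1 (0.094). The other probe set of SLC7A4 above the filter changed by 0.42 at E7 (adjusted p = 0.096) and by -0.06 at E14 (0.77), and the mean of its probe sets by 0.59 (0.0025) and 0.23 (0.17), so the E14 call rests on 1 probe set.

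SLC7A11 (xCT) exchanges glutamate for cystine, from which cells make glutathione. SLC7A11 signals in E7 cultures were 149, 207 and 141 (SF3), 389, 309.8 and 360.1 (rcSF3), 121, 127 and 89.3 (SF3 with serum), and 143, 206 and 162 (rcSF3 with serum). SLC7A11 signals in E14 cultures were 81, 123 and 146 (SF3), 136, 154 and 134 (rcSF3), 199, 284 and 160.5 (SF3 with serum), and 221, 201 and 174 (rcSF3 with serum). In E7 cultures the 3 arrays in rcSF3 were above all others of the study. rcSF3 increased SLC7A11 by 1.11 ± 0.22, adjusted p = 0.0015 at E7, and at E14 the change was 0.32 ± 0.26, adjusted p = 0.5. Serum added to rcSF3 at E7 decreased it (-1.06 ± 0.22, adjusted p = 0.0021). Serum in SF3 gave -0.56 ± 0.22, adjusted p = 0.056 at E7 and increased it at E14 (0.88 ± 0.26, adjusted p = 0.023), a call lost without E14 SF3 replicate 1 (0.1) or E14 SF3 with serum replicate 2 (0.11). The 1 other probe set above the filter increased with rcSF3 at E7, and with serum at E14 its change was 0.13 (adjusted p = 0.82). With the mean of all probe sets of SLC7A11, dim ones included, the change was 0.15 with rcSF3 at E7 (adjusted p = 0.83), -0.40 with serum added to rcSF3 at E7 (0.5) and 0.58 with serum at E14 (0.34), so none of these calls was kept. Of 6 genes for synthesis of taurine, cysteine and glutathione above the filter, 3 increased and 1 decreased with rcSF3 at E7 (66.7%, against 27.5% of all probe sets), and limma called 0 at E14 (against 9.86%). With serum 4 increased at E7 (66.7%, against 39.2%) and 2 at E14 (33.3%, against 24.3%). At E7 GCLC and GCLM, the subunits of the enzyme that limits glutathione synthesis, increased with rcSF3 by 0.74 ± 0.09 and 0.60 ± 0.12 (2.5e-05 and 0.0013) and with serum by 0.58 ± 0.09 and 0.68 ± 0.12 (0.00018 and 0.00039). CSAD, which makes taurine, decreased with rcSF3 (-0.52 ± 0.19, adjusted p = 0.049) and increased with serum (0.80 ± 0.19, adjusted p = 0.0037). SLC3A1, the heavy chain of a cystine carrier, decreased with rcSF3 at E7 from 209, 222 and 245 to 182, 110.3 and 83.2. That change of -0.92 ± 0.27, adjusted p = 0.021 was lost without E7 SF3 replicate 2 (0.051), E7 SF3 replicate 3 (0.069), E7 rcSF3 replicate 2 (0.057) or E7 rcSF3 replicate 3 (0.096), and its light chain SLC7A9 was under the filter.

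SLC38A2, a carrier of glutamine and alanine that many cells induce when amino acids are scarce, had the largest decrease with rcSF3 of the 34 genes at both ages. SLC38A2 signals in E7 cultures were 4925, 4711 and 4022 (SF3), 2621, 2353 and 1495 (rcSF3), 2326, 2125 and 2392 (SF3 with serum), and 1050.1, 1591 and 1332 (rcSF3 with serum). SLC38A2 signals in E14 cultures were 2554, 2758 and 2448 (SF3), 1066, 1250.1 and 897 (rcSF3), 2359, 1639 and 1623 (SF3 with serum), and 1881, 1512 and 1468 (rcSF3 with serum). Arrays in SF3 were above all others at each age. rcSF3 decreased SLC38A2, with log2 changes of -1.11 ± 0.18 at E7 and -1.28 ± 0.15 at E14 (adjusted p = 0.00028 and 0.00014), and serum gave -0.99 ± 0.18 and -0.49 ± 0.15 (0.00053 and 0.029). Its other probe set also decreased and passed the test in these 4 comparisons. The serum call at E14 was lost without E14 SF3 replicate 1 (0.067), E14 SF3 replicate 2 (0.089), E14 SF3 with serum replicate 2 (0.11) or E14 SF3 with serum replicate 3 (0.11). Serum added to rcSF3 decreased SLC38A2 at E7 (-0.68 ± 0.18, adjusted p = 0.0093, with 1 array of rcSF3 within the range of the other group) and increased it at E14 (0.60 ± 0.15, adjusted p = 0.0096). There, the other probe set of SLC38A2 gave -1.12 (adjusted p = 0.0021) at E7 and 0.27 (0.32) at E14.

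SLC38A3, which moves glutamine with hydrogen ions in exchange and is prominent in liver and glia, increased with serum. SLC38A3 signals in E7 cultures were 355, 455 and 381 (SF3), 250.2, 518 and 314 (rcSF3), 737, 623 and 687 (SF3 with serum), and 551, 675 and 554 (rcSF3 with serum). SLC38A3 signals in E14 cultures were 261, 278 and 251 (SF3), 289, 246 and 302 (rcSF3), 442, 508 and 460.3 (SF3 with serum), and 397, 539.8 and 511 (rcSF3 with serum). Arrays in SF3 with serum were above those without serum in SF3 and rcSF3 at each age. The increase was 0.79 ± 0.21, adjusted p = 0.0075 at E7 and 0.84 ± 0.15, adjusted p = 0.001 at E14, and in rcSF3 it was 0.78 ± 0.21, adjusted p = 0.01 and 0.78 ± 0.15, adjusted p = 0.0017. With rcSF3 alone the changes were -0.20 ± 0.21, adjusted p = 0.52 at E7 and 0.08 ± 0.15, adjusted p = 0.79 at E14, and the 3 rcSF3 arrays of E7 spread from 250.2 to 518.

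SLC38A1, a sodium-coupled carrier of glutamine in neurons and other cells, measured 4053, 4012 and 4301 in E7 SF3 and 6639, 6494 and 6092 with serum. The groups were apart (0.64 ± 0.07, adjusted p = 1.8e-05), but 1 of its 4 other probe sets above the filter went down and passed the test (-0.30, adjusted p = 0.023), so the direction for the gene is not settled here. At E14 serum gave 0.02 ± 0.08, adjusted p = 0.87. rcSF3 at E14 gave -0.28 ± 0.08, adjusted p = 0.042, which was lost without any 1 of the 6 arrays (adjusted p = 0.061 to 0.15), and was 0.15 with the mean of all its probe sets. SLC38A9, a lysosomal carrier that reports arginine to mTORC1, decreased with serum at E7 from 320.3, 312 and 346 to 196, 207 and 141 (-0.87 ± 0.20, adjusted p = 0.0029), while at E14 the change was -0.16 ± 0.18, adjusted p = 0.54. SLC36A1, a proton-coupled carrier of small amino acids, increased with serum at E7 from 180.2, 184 and 193 to 325, 271 and 371 (0.79 ± 0.20, adjusted p = 0.0071), and at E14 the change was 0.02 ± 0.25, adjusted p = 0.96. In both genes the E7 groups were apart. The 2 other probe sets of SLC36A1 above the filter changed with serum at E7 by -0.07 (adjusted p = 0.92) and 0.05 (0.85), and the mean of all its probe sets by 0.05 (0.93), so this call rests on 1 probe set. With rcSF3 SLC38A9 changed by -0.40 ± 0.20, adjusted p = 0.14 at E7 and -0.09 ± 0.18, adjusted p = 0.8 at E14, and SLC36A1 by 0.19 ± 0.20, adjusted p = 0.55 and -0.01 ± 0.25, adjusted p = 0.99. Of 18 genes for lysosomal amino acid sensing, serum increased 7 and decreased 1 at E7 (44.4%, near the 39.2% of all probe sets), among them RHEB, which activates mTORC1 (0.44 ± 0.09, adjusted p = 0.0011), and LAMTOR5 (0.45 ± 0.09, adjusted p = 0.0015). At E14 serum increased 4 and decreased 1 of 17 (29.4%, near the 24.3% of all probe sets). rcSF3 decreased 2 of 18 at E7 (11.1%, below 27.5%) and increased 1 of 17 at E14 (5.88%, below 9.86%).

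With basal serum in both groups compared, rcSF3 increased SLC6A12, SLC1A2, SLC7A10, SLC15A4 and SLC1A7 at E7 and decreased SLC38A2, SLC6A8, SLC38A1, SLC6A9 and SLC6A6. SLC6A12 measured 722, 965 and 718 in SF3 with serum and 1510.3, 1109.9 and 1051 in rcSF3 with serum, with no overlap (0.61 ± 0.16, adjusted p = 0.015). SLC1A2 measured 236, 241 and 218 and 361, 338 and 325, also with no overlap (0.56 ± 0.14, adjusted p = 0.013). The calls for SLC6A12 and SLC1A2 were each lost without some single arrays, SLC6A12 without E7 SF3 with serum replicate 1 (0.053), E7 SF3 with serum replicate 3 (0.066) or E7 rcSF3 with serum replicate 1 (0.084), and SLC1A2 without E7 SF3 with serum replicate 3 (0.052) or E7 rcSF3 with serum replicate 1 (0.059). With the mean of its probe sets the change of SLC6A12 was -0.05. SLC1A7, the glutamate transporter of photoreceptors and bipolar cells, gave 0.33 ± 0.11, adjusted p = 0.039, which was lost without any 1 of 5 of the 6 arrays (adjusted p = 0.067 to 0.2), that is, all but E7 rcSF3 with serum replicate 3. SLC15A4, which exports histidine and peptides from lysosomes, gave 0.35 ± 0.11, adjusted p = 0.035, which was lost without E7 SF3 with serum replicate 2 (0.12), E7 SF3 with serum replicate 3 (0.099), E7 rcSF3 with serum replicate 1 (0.13) or E7 rcSF3 with serum replicate 2 (0.083). SLC7A10 gave 0.46 ± 0.15, adjusted p = 0.041, which was lost without any 1 of 5 of the 6 arrays (adjusted p = 0.084 to 0.14), that is, all but E7 SF3 with serum replicate 2. SLC6A6 gave -0.30 ± 0.08, adjusted p = 0.02, which was lost without E7 SF3 with serum replicate 1 (0.063), E7 SF3 with serum replicate 3 (0.056), E7 rcSF3 with serum replicate 2 (0.071) or E7 rcSF3 with serum replicate 3 (0.056). The 2 other probe sets of SLC6A6 above the filter changed by 0.13 (adjusted p = 0.63) and 0.40 (0.17), so this call rests on 1 probe set. The decreases of SLC38A2 (-0.80 ± 0.18, adjusted p = 0.0054), SLC6A8 (-0.66 ± 0.10, adjusted p = 0.00032), SLC38A1 (-0.40 ± 0.07, adjusted p = 0.0018) and SLC6A9 (-0.38 ± 0.08, adjusted p = 0.0058) kept their calls with any 1 array left out. The other probe set of SLC38A2 gave -0.51 (adjusted p = 0.13), and 2 of the 4 others of SLC38A1 above the filter decreased and passed. The count of 10 was 6 without E7 SF3 with serum replicate 1, 4 without E7 SF3 with serum replicate 3, 5 without E7 rcSF3 with serum replicate 1 and 6 without E7 rcSF3 with serum replicate 2.

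Serum added to rcSF3 gave further changes beside those described. At E7 SLC7A4 increased from 819, 839.9 and 789 to 1203, 1371 and 1177 (0.61 ± 0.10, adjusted p = 0.00047), with no overlap. SLC36A1 had 0.57 ± 0.20, adjusted p = 0.046, with overlap of the groups, and this was lost without E7 rcSF3 with serum replicate 1 (0.12), E7 rcSF3 with serum replicate 3 (0.19), E7 rcSF3 replicate 1 (0.13) or E7 rcSF3 replicate 3 (0.14). SLC6A9 increased (0.31 ± 0.08, adjusted p = 0.011), which was lost without E7 rcSF3 with serum replicate 3 (0.055). SLC38A9 decreased from 234, 262 and 243 to 124, 193 and 169.7 (-0.63 ± 0.20, adjusted p = 0.025), which was lost without E7 rcSF3 with serum replicate 1 (0.11), E7 rcSF3 replicate 2 (0.072) or E7 rcSF3 replicate 3 (0.052), and SLC6A15 decreased as well (-0.53 ± 0.12, adjusted p = 0.0032). SLC7A5 had -0.36 ± 0.12, adjusted p = 0.034, with overlap of the groups, and this was lost without E7 rcSF3 with serum replicate 1 (0.082), E7 rcSF3 with serum replicate 3 (0.1), E7 rcSF3 replicate 1 (0.16) or E7 rcSF3 replicate 3 (0.08). At E7 the other probe set above the filter gave 0.45 (adjusted p = 0.087) for SLC7A4 and -0.03 (0.88) for SLC7A5. The 2 others of SLC36A1 gave 0.09 (0.9) and 0.06 (0.85), while 2 of the 3 others of SLC6A15 decreased and passed. At E14 SLC7A3 (1.09 ± 0.21, adjusted p = 0.0022), SLC1A4 (0.83 ± 0.16, adjusted p = 0.0023) and SLC6A9 (0.65 ± 0.10, adjusted p = 0.00056) increased and SLC1A6 decreased (-0.42 ± 0.07, adjusted p = 0.0011). The 1 other probe set of SLC1A4 above the filter gave 0.31 (adjusted p = 0.33). Of the others, 2 of 4 of SLC7A3 and 1 of 2 of SLC1A6 passed in the same direction. SLC38A1 also passed with an increase of 0.32 by its brightest probe set. Its 5 other probe sets above the filter went down, and 1 of them passed the test (-0.57, adjusted p = 0.029). The direction for SLC38A1 is thus not settled here. SLC7A14 increased from 179, 235 and 202 to 293, 436 and 280.5 (0.69 ± 0.22, adjusted p = 0.033), which was lost without E14 rcSF3 with serum replicate 2 (0.16), E14 rcSF3 replicate 1 (0.099) or E14 rcSF3 replicate 3 (0.078).

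Serum and rcSF3 together were tested with an interaction, which is the response to rcSF3 with serum minus the response without it. At E7 it passed for 7 of 34 genes (20.6%), 6 negative and 1 positive, against 2.24% of all probe sets, with 1.32% negative and 0.916% positive. SLC6A15 had -1.22 ± 0.16, adjusted p = 0.0014, SLC7A3 -1.18 ± 0.24, adjusted p = 0.02, SLC1A4 -0.87 ± 0.20, adjusted p = 0.037, SLC7A5 -0.76 ± 0.17, adjusted p = 0.032, SLC38A1 -0.49 ± 0.11, adjusted p = 0.027 and SLC7A6 -0.44 ± 0.11, adjusted p = 0.048. For SLC6A15 rcSF3 gave 0.95 without serum and -0.27 with it, for SLC7A3 0.85 and -0.34, for SLC1A4 0.98 and 0.11, and for SLC7A5 1.03 and 0.27. In each of these 4 genes the change with rcSF3 was smaller or of opposite sign when serum was there. SLC6A4 was the positive one (1.15 ± 0.27, adjusted p = 0.038), with -0.73 without serum and 0.42 with it. SLC6A15 kept its call with any 1 array left out, and the others did not. The call was lost for SLC7A3 without E7 SF3 with serum replicate 2 (0.057) or E7 rcSF3 with serum replicate 1 (0.052), for SLC38A1 without any 1 of 7 of the 12 arrays (adjusted p = 0.051 to 0.075), that is, all but E7 SF3 replicate 3, E7 SF3 with serum replicate 1, E7 SF3 with serum replicate 3, E7 rcSF3 with serum replicate 3 and E7 rcSF3 replicate 2, and for SLC1A4 without any 1 of 9 of the 12 arrays (adjusted p = 0.053 to 0.097), that is, all but E7 SF3 with serum replicate 1, E7 rcSF3 with serum replicate 2 and E7 rcSF3 replicate 2. That for SLC7A5 was lost without any 1 of 9 of the 12 arrays (adjusted p = 0.051 to 0.083), that is, all but E7 SF3 with serum replicate 1, E7 rcSF3 replicate 1 and E7 rcSF3 replicate 2, and that for SLC6A4 without any 1 of 9 of the 12 arrays (adjusted p = 0.063 to 0.1), that is, all but E7 SF3 with serum replicate 1, E7 rcSF3 with serum replicate 3 and E7 rcSF3 replicate 2. That for SLC7A6 was lost without any 1 of 11 of the 12 arrays (adjusted p = 0.052 to 0.11), that is, all but E7 rcSF3 with serum replicate 1. The count of 7 ranged from 1 to 6 with 1 array left out, and was 1 without E7 SF3 with serum replicate 2. The 3 other probe sets of SLC6A15 above the filter gave -0.82 (adjusted p = 0.38), -0.78 (0.097) and -0.59 (0.29). No other probe set of SLC7A3, SLC1A4, SLC7A5 or SLC7A6 passed either, while 2 of the 4 others of SLC38A1 did. At E14 the interaction passed for 2 of 34 genes (5.88%), 1 in each direction, against 0.632% of all probe sets, with 0.404% negative and 0.229% positive. It was -0.69 ± 0.12, adjusted p = 0.02 for SLC7A5 and 1.09 ± 0.21, adjusted p = 0.036 for SLC38A2, and with the mean of all its probe sets that of SLC7A5 was 0.10. The call for SLC7A5 was lost without E14 SF3 with serum replicate 2 (0.065), E14 rcSF3 with serum replicate 2 (0.056), E14 rcSF3 with serum replicate 3 (0.057) or E14 rcSF3 replicate 2 (0.053), and that for SLC38A2 without any 1 of 10 of the 12 arrays (adjusted p = 0.061 to 0.094), that is, all but E14 SF3 with serum replicate 1 and E14 rcSF3 replicate 2.

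Age was compared in each medium over the 36 genes that passed the filter at either age. In SF3, 8 genes were higher and 10 lower at E14 (50%), while 15.6% of all probe sets were higher and 20.2% lower (35.8%). In rcSF3, 7 were higher and 8 lower (41.7%), against 11.1% and 12.4% (23.5%). In SF3 with serum, 9 were higher and 4 lower (36.1%), against 13.7% and 15.2% (28.9%). In rcSF3 with serum, 9 were higher and 1 lower (27.8%), against 8.78% and 10% (18.8%). The median difference over the 36 genes was -0.11, 0.15, 0.12 and -0.03 in SF3, SF3 plus serum, rcSF3 plus serum and rcSF3, against -0.08, -0.04, -0.01 and -0.03 for all probe sets. By the probe set that stood for each gene, SLC6A15, SLC6A20, SLC7A6, SLC7A10 and SLC17A5 were higher at E14 in all 4 media, while the other probe set of SLC7A6 passed the test in 1 medium, SF3 plus serum. For SLC6A15, SLC6A20, SLC7A10 and SLC17A5 the lowest E14 array was above the highest E7 array of any medium. The shares of all probe sets higher in all 4 media, or apart in this way, were not counted. Whether these counts are unusual is thus not known. SLC6A20 was higher by 0.76 ± 0.15 in SF3, 1.09 ± 0.15 in SF3 plus serum, 1.15 ± 0.15 in rcSF3 plus serum and 1.15 ± 0.15 in rcSF3 (adjusted p = 0.00034, 9.3e-06, 9.5e-06 and 6.6e-06). Its 2 other probe sets above the filter were also higher and passed the test in all 4 media. SLC6A15 was higher by 1.20 ± 0.10, 0.49 ± 0.10, 1.11 ± 0.10 and 0.58 ± 0.10 in the same order (6.4e-09, 0.0011, 1.1e-07 and 0.00028).

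**Figure D4:**
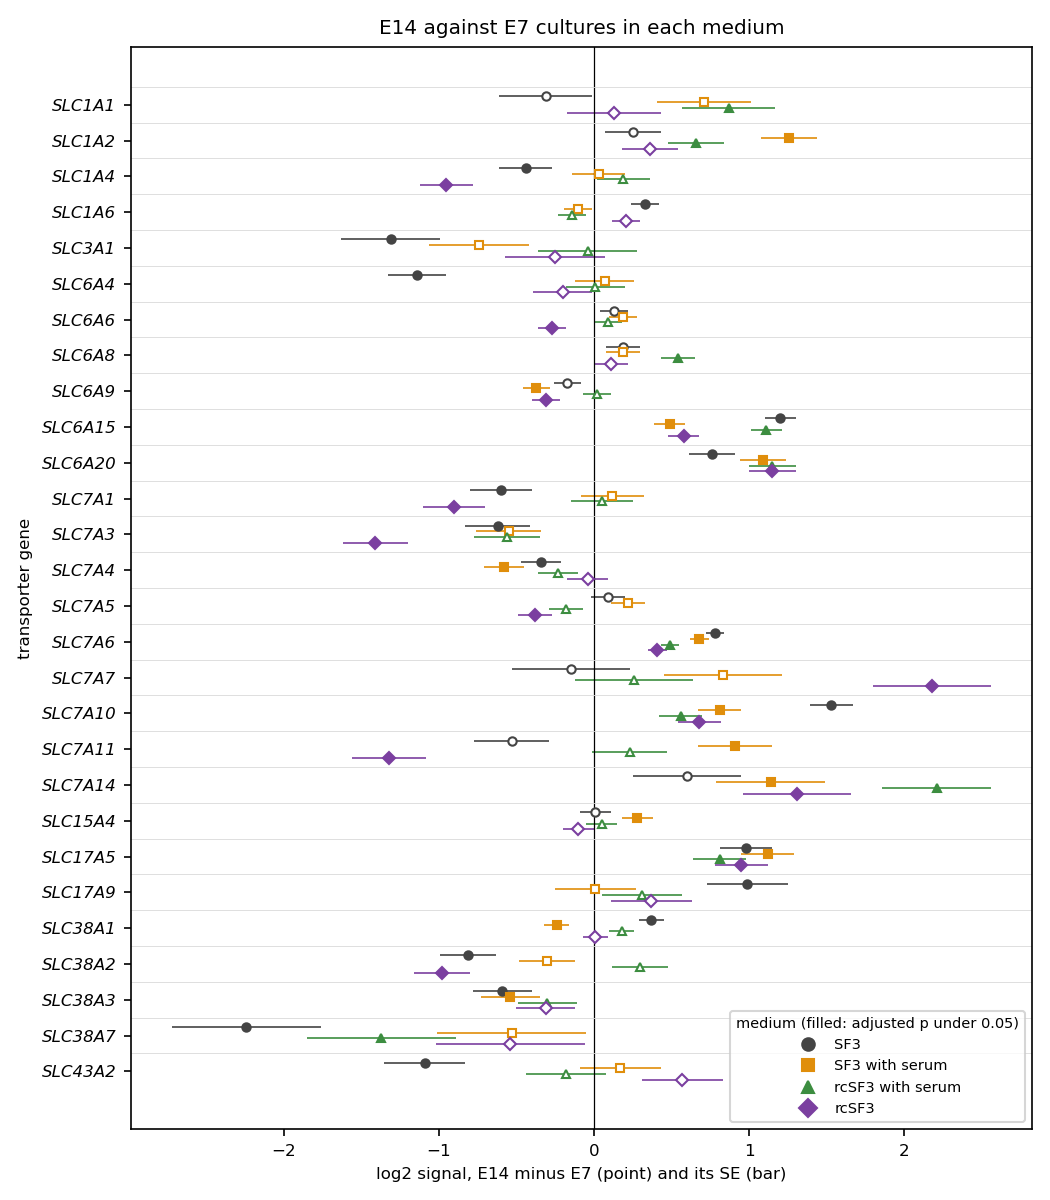
Log2 difference between E14 and E7 cultures, with its SE as a bar, in each of 4 media for the 28 transporter genes that passed the test in at least 1 medium. Filled symbols have an adjusted p under 0.05. SLC6A15, SLC6A20, SLC7A6, SLC7A10 and SLC17A5, each by its brightest probe set, lie to the right in all media, and of the genes that passed in rcSF3, SLC7A3 and SLC7A11 lie farthest to the left.

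SLC17A5 (sialin), which exports sialic acid from lysosomes, measured 330.1, 378 and 277 at E7 and 654, 532 and 756 at E14 in SF3. It was higher by 0.98 ± 0.17, 1.12 ± 0.17, 0.81 ± 0.17 and 0.95 ± 0.17 in SF3, SF3 plus serum, rcSF3 plus serum and rcSF3 (0.00013, 4.2e-05, 0.0018 and 0.00032), and its other probe set was also higher and passed the test in all 4. SLC7A10 was higher by 1.53 ± 0.14, 0.81 ± 0.14, 0.56 ± 0.14 and 0.68 ± 0.14 (1.9e-08, 0.00016, 0.0077 and 0.0012), though with the mean of all its probe sets the difference in SF3 plus serum was -0.02, and it passed in neither medium with rcSF3 (0.40, adjusted p = 0.34, with serum and 0.53, adjusted p = 0.17, without). SLC7A6 was higher by 0.78 ± 0.06, 0.68 ± 0.06, 0.49 ± 0.06 and 0.41 ± 0.06 (2.8e-09, 7.1e-08, 1.2e-05 and 6.3e-05). The 1 other probe set of SLC7A6 above the filter gave 0.11 (adjusted p = 0.51) in SF3, 0.44 (0.0091) in SF3 plus serum, 0.32 (0.078) in rcSF3 plus serum and -0.23 (0.18) in rcSF3, so its direction in rcSF3 was not shared by both probe sets. For the probe sets that stood for these 5 genes, the E7 and E14 arrays did not overlap in any medium, and the share of all probe sets with this property was not counted. SLC7A14, a lysosomal member of the cationic family that is linked to human retinal degeneration, was higher in the 3 media other than SF3. In SF3 the difference was 0.60 ± 0.35, adjusted p = 0.18. Its arrays in SF3 were apart, at 157, 130 and 138 at E7 and 202, 231 and 211 at E14. This SE draws on all 8 groups, among them E7 rcSF3 with serum at 112, 113 and 28.4. SLC7A14 measured 84.4, 73.6 and 90.3 at E7 and 179, 235 and 202 at E14 in rcSF3 (1.31 ± 0.35, adjusted p = 0.008), and all E7 signals there were under 100. With signals under 100 raised to 100 this difference was 1.03 (adjusted p = 0.00024). Raising them gives the E7 arrays in rcSF3 a shared value with no spread, so the smaller p adds no support. In rcSF3 with serum it was 2.21 ± 0.35, adjusted p = 8.1e-05, and 1.61 with low signals raised in the same way. In SF3 with serum (1.14 ± 0.35, adjusted p = 0.016) the call was lost without E7 SF3 with serum replicate 3 (0.054) or E14 SF3 with serum replicate 2 (0.089). SLC17A9, which loads nucleotides such as ATP into vesicles, was higher in SF3, at 129, 126 and 101 at E7 and 203, 246 and 263 at E14 (0.99 ± 0.26, adjusted p = 0.0039), and in the other media the differences were 0.01, 0.31 and 0.37. SLC7A7, a close relative of SLC7A6, had all E7 signals in rcSF3 under 100, and its difference there (2.18 ± 0.38, adjusted p = 0.00018) was 0.43 (adjusted p = 0.11) with signals under 100 raised to 100. SLC1A2 was higher at E14 with serum (1.26 ± 0.18, adjusted p = 1.4e-05 in SF3 and 0.66 ± 0.18, adjusted p = 0.011 in rcSF3), the latter not without E14 rcSF3 with serum replicate 1 (0.056). SLC1A1, the neuronal and epithelial glutamate transporter, was higher in rcSF3 with serum (0.87 ± 0.30, adjusted p = 0.046), a call lost without any 1 of 5 of the 6 arrays (adjusted p = 0.071 to 0.19), that is, all but E7 rcSF3 with serum replicate 1.

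Genes lower at E14 were found mainly without serum. SLC6A4 was lower in SF3 (-1.14 ± 0.19, adjusted p = 5.3e-05), with groups apart. In the other media its differences were 0.07, 0.01 and -0.20 in SF3 with serum, rcSF3 with serum and rcSF3, and did not pass. SLC38A2 was lower in SF3 (-0.81 ± 0.18, adjusted p = 0.0011) and in rcSF3 (-0.98 ± 0.18, adjusted p = 0.00032). SLC7A3 and SLC1A4 were lower in rcSF3 (-1.41 ± 0.21, adjusted p = 3.9e-05 and -0.95 ± 0.17, adjusted p = 0.0002). In SF3 their differences were -0.62 ± 0.21, adjusted p = 0.027 and -0.44 ± 0.17, adjusted p = 0.041, the former lost without E7 SF3 replicate 2 (0.12), E14 SF3 replicate 1 (0.088) or E14 SF3 replicate 3 (0.079), the latter without any 1 of 5 of the 6 arrays (adjusted p = 0.072 to 0.13), that is, all but E7 SF3 replicate 1. SLC7A1 was lower in rcSF3 (-0.90 ± 0.20, adjusted p = 0.0018) and in SF3 (-0.60 ± 0.20, adjusted p = 0.019), the SF3 difference not without E7 SF3 replicate 2 (0.086) or E14 SF3 replicate 3 (0.054). SLC7A11 was lower in rcSF3 (-1.32 ± 0.24, adjusted p = 0.00032) and higher in SF3 with serum (0.91 ± 0.24, adjusted p = 0.0063), where the call was lost without E14 SF3 with serum replicate 2 (0.055). SLC7A5 (-0.38), SLC6A6 (-0.27) and SLC6A9 were also lower in rcSF3, and no other probe set of SLC7A5 or SLC6A6 passed. The call for SLC7A5 was lost without E7 rcSF3 replicate 1 (0.16). That for SLC6A9 was lost without E7 rcSF3 replicate 2 (0.066) or E14 rcSF3 replicate 3 (0.088). That for SLC6A6 was lost without E7 rcSF3 replicate 2 (0.21), E14 rcSF3 replicate 1 (0.094) or E14 rcSF3 replicate 3 (0.066). SLC38A7, SLC3A1 and SLC43A2 also had negative differences in SF3 that passed (-2.24 ± 0.48, adjusted p = 0.00082, -1.31 ± 0.32, adjusted p = 0.0025 and -1.09 ± 0.26, adjusted p = 0.0024), but SLC38A7 and SLC3A1 were above the filter at E7 alone. SLC38A7 and SLC43A2 had all E14 SF3 signals under 100, and with signals under 100 raised to 100 the differences were -0.25 and -0.50 (adjusted p = 0.48 and 0.071). For SLC3A1 the difference was then -1.0 (adjusted p = 0.00051). Raising low signals removes part of the spread between arrays, so this smaller p adds no support. In SF3 with serum the 4 lower genes were SLC7A4 (-0.58 ± 0.13, adjusted p = 0.0019), SLC38A3 (-0.54 ± 0.19, adjusted p = 0.032), SLC6A9 (-0.37 ± 0.09, adjusted p = 0.0051) and SLC38A1 (-0.24 ± 0.08, adjusted p = 0.02). Of these, SLC38A3 was lost without E7 SF3 with serum replicate 1 (0.1), E7 SF3 with serum replicate 3 (0.078), E14 SF3 with serum replicate 1 (0.089) or E14 SF3 with serum replicate 3 (0.081), and SLC38A1 without E7 SF3 with serum replicate 1 (0.071), E7 SF3 with serum replicate 2 (0.059) or E14 SF3 with serum replicate 3 (0.12). Of the 5 other probe sets of SLC38A1 above the filter, 4 were also lower in SF3 with serum and none passed. In SF3 without serum SLC38A1 passed as higher at E14 (0.37). There, 4 of its 5 other probe sets were also higher, and 2 of them passed. In rcSF3 with serum only SLC38A7 was lower (-1.37 ± 0.48, adjusted p = 0.048), with overlap of the groups, and this was lost without any 1 of 5 of the 6 arrays (adjusted p = 0.057 to 0.26), that is, all but E14 rcSF3 with serum replicate 2.

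The response itself differed between the ages for some of the 36 genes. The difference is the response at E14 minus that at E7. For rcSF3 without serum it was positive for 3 and negative for 4 (19.4%), against 2.33% and 3.03% of all probe sets (5.36%). For serum in SF3 it was also positive for 3 and negative for 4 (19.4%), against 1.65% and 2.05% (3.7%), and this count of 7 was 4 without E7 SF3 replicate 2, E7 SF3 replicate 3, E14 SF3 replicate 1 or E14 SF3 with serum replicate 1, and 3 without E7 SF3 with serum replicate 3 or E14 SF3 with serum replicate 2. For rcSF3 with serum it was positive for 2 and negative for 0 (5.56%), against 0.727% and 0.856% (1.58%). Those 2 genes were SLC6A15, lost without any 1 of 8 of the 12 arrays (adjusted p = 0.065 to 0.12), that is, all but E7 SF3 with serum replicate 2, E7 rcSF3 with serum replicate 3, E14 SF3 with serum replicate 1 and E14 rcSF3 with serum replicate 2, and SLC38A1, lost without any 1 of 11 of the 12 arrays (adjusted p = 0.051 to 0.15), that is, all but E7 rcSF3 with serum replicate 3. The smallest adjusted p values were for SLC43A2, SLC7A7 and SLC7A10 with rcSF3, and for SLC38A1, SLC6A15 and SLC6A4 with serum. SLC7A7 and SLC43A2 are among the 3 positive genes for rcSF3 without serum, and both rest on dim signals. SLC7A7 was under the filter at E7, and measured 21.6 to 39.5 in E7 rcSF3. SLC43A2 measured 58.1 to 79.8 in E14 SF3. With such low signals raised to the filter signal, the difference for SLC7A7 no longer passed and that for SLC43A2 was smaller. SLC7A10 changed with rcSF3 by 0.93 at E7 against 0.08 at E14, a difference of -0.85 ± 0.20, adjusted p = 0.012. SLC6A4 changed with serum by -2.11 at E7 against -0.91 at E14, a difference of 1.21 ± 0.27, adjusted p = 0.012. SLC7A11 had -0.56 with serum at E7 against 0.88 at E14, a difference of 1.44 ± 0.34, adjusted p = 0.02, which was lost without E7 SF3 replicate 2 (0.061), E7 SF3 with serum replicate 3 (0.058), E14 SF3 replicate 1 (0.054) or E14 SF3 with serum replicate 2 (0.066). Its other probe set above the filter gave a difference of 0.60 (adjusted p = 0.53). For SLC6A8 the serum response differed by 0.00 ± 0.16, with a 95% confidence interval of -0.33 to 0.33 on the log2 scale.

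Genes of the amino acid response, which cells transcribe through ATF4 when amino acids run short or the endoplasmic reticulum is stressed, and of serine synthesis moved with serum in the same cultures. Of 15 measured genes of this list, serum increased 10 and decreased 1 at E7 (73.3%, against 39.2% of all probe sets) and increased 11 and decreased 1 at E14 (80%, against 24.3%), with medians of 0.68 and 0.83 against -0.04 and -0.02 for all probe sets. rcSF3 increased 7 at E7 (46.7%, against 27.5%, median 0.38 against -0.02) and decreased 2 at E14 (13.3%, against 9.86%, median -0.07 against 0.03). SARS1, a seryl-tRNA synthetase, increased with serum by 0.90 ± 0.13 at E7 and 1.02 ± 0.15 at E14 (0.00014 and 0.00028), and CHAC1, which degrades glutathione, by 2.60 ± 0.57 and 1.89 ± 0.36 (0.0023 and 0.0017). PHGDH, the first enzyme of serine synthesis, increased with serum by 2.24 ± 0.41 at E7 and 2.41 ± 0.82 at E14 (0.00063 and 0.044). With rcSF3, ASNS, which makes asparagine, increased by 1.70 ± 0.29 at E7 (0.00052), and at E14 the change was 0.57 ± 0.27, adjusted p = 0.21. PSPH, the last enzyme of serine synthesis, decreased with serum, with changes of -0.64 ± 0.13 at E7 and -0.96 ± 0.16 at E14 (0.0014 and 0.00079). ATF4 itself, named after its values were seen, changed by 0.17 ± 0.08, adjusted p = 0.11 at E7 and 0.12 ± 0.08, adjusted p = 0.27 at E14 with serum.

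**Figure D5:**
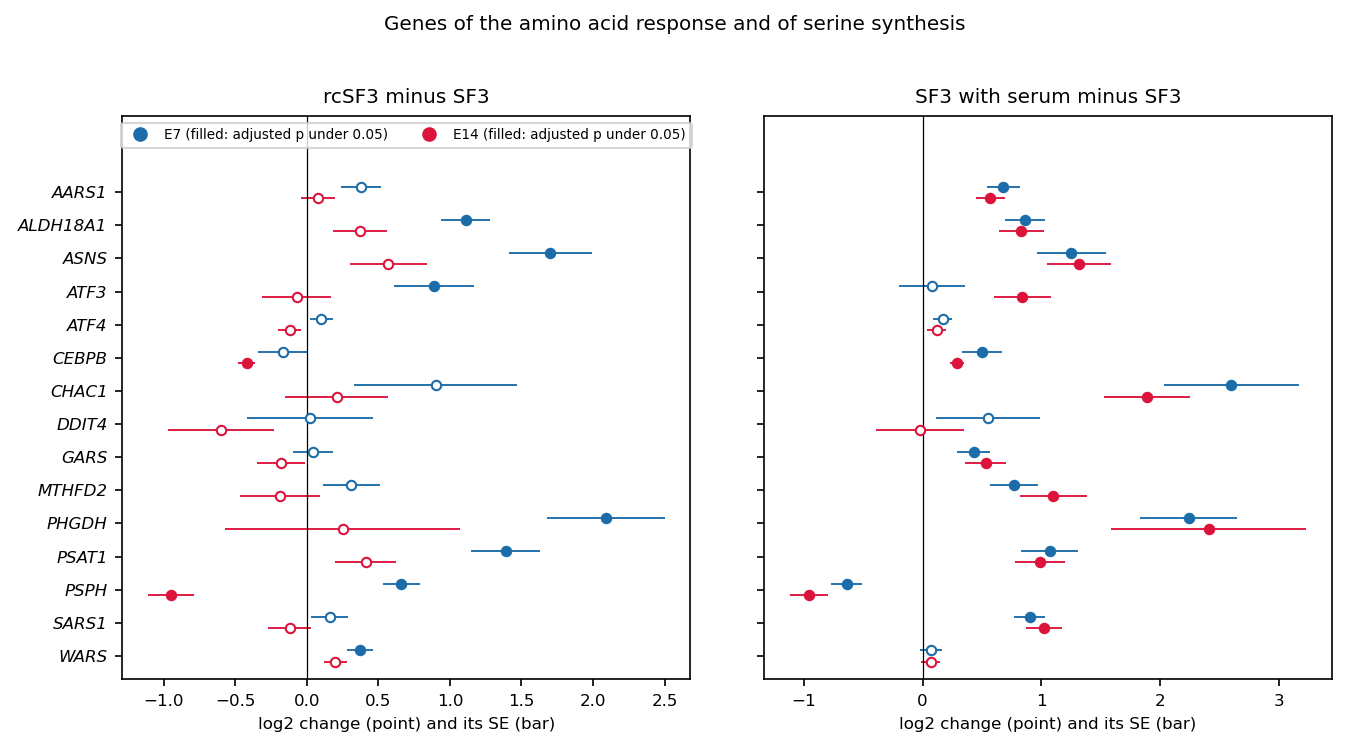
Log2 change with rcSF3 (left) and with serum (right), each against SF3, of 15 genes of the amino acid response and of serine synthesis at E7 (blue) and E14 (red), with the SE as a bar. Points are filled where the adjusted p was under 0.05. Among changes that passed, 10 genes at E7 and 11 at E14 increased with serum and PSPH decreased. With rcSF3 at E14 no increase of a gene of the list passed.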

How the data were processed

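RNA of chick RPE cultures was hybridised to 24 chicken genome arrays, 1 array for each of 3 repeats in 8 groups. The authors deposited a signal (intensity, linear, arbitrary units) for each of 38535 probe sets and array. They had scaled all arrays to a common target, so that the mean of each array after trimming 2% was 500. A software version was not given in the sources used here. Such scaling fixes the average of each array, so a shift shared by most genes would not be seen. The 96 control probe sets were left out and log2 was taken of the other 38439 deposited signals.

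Of these, 27168 had 1 gene symbol in the platform annotation, 177 had several and 11094 had none. The annotation can be old, and 51 of the 53 transporter symbols matched current RefSeq symbols. Some genes are not reported here. Each gene was represented by the probe set with the highest mean log2 signal.

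Probe sets were kept where the mean log2 signal over the 12 arrays of an age was at least log2 of 100, which left 18663 at E7 and 18815 at E14, and 19519 at either age for the comparison of ages. The media were compared within an age over 12 arrays and 4 groups, and the ages over 24 arrays and 8 groups, with limma 3.58.1 in R 4.3.3 (lmFit, then eBayes with a mean-variance trend). Benjamini-Hochberg adjustment ran over all probe sets kept, and an adjusted p under 0.05 passed the test. Each p value sets a difference against the spread between the 3 repeats, pooled over all groups of the fit and moderated by eBayes. The number of arrays limits the precision.

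The transporters, the gene lists and the rule for naming genes were chosen with earlier results of these data known. In each comparison, the 6 genes with the largest increase and the 6 with the largest decrease among those that passed were to be named, 18 others always where measured, and 1 to 4 genes of each other list with the lowest p. Not all of them are described in every comparison. Alternatives were quantile normalization, no filter or a filter of 200, signals under 100 raised to 100, other variance models, the replicate number as a block, the mean of all probe sets of a gene, and each array left out in turn. The fits were tested on simulated data. Figures were drawn with matplotlib 3.10.9 in Python 3.11.15.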

Additional observations from a re-analysis of the deposited data

Results flagged for a closer look

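The responses of some transporter genes differed between E14 and E7 cultures by the interaction test of limma, with 16 such differences in all. Several of these genes differed in more than 1 comparison. Of all probe sets, 5.36% differed for rcSF3 without serum, 3.7% for serum in SF3 and 1.58% for rcSF3 with serum. These comparisons share arrays. Each value here is the E14 response minus the E7 response on the log2 scale ± SE, with 3 arrays in each group. The SE is from the spread in all 8 groups of the fit. For rcSF3 without serum the differences were 0.93 ± 0.27 for SLC6A4 (adjusted p = 0.04), -0.62 ± 0.15 for SLC6A15 (0.013), -0.37 ± 0.09 for SLC7A6 (0.016), 2.33 ± 0.53 for SLC7A7 (0.0093), -0.85 ± 0.20 for SLC7A10 (0.012), -0.36 ± 0.11 for SLC38A1 (0.05, just under the threshold before rounding) and 1.66 ± 0.37 for SLC43A2 (0.008). The difference no longer passed for SLC6A4 without any 1 of 9 of the 12 arrays (adjusted p = 0.053 to 0.097), that is, all but E7 rcSF3 replicate 2, E14 SF3 replicate 2 and E14 rcSF3 replicate 2, and for SLC38A1 without any 1 of 10 of the 12 arrays (adjusted p = 0.054 to 0.14), that is, all but E7 rcSF3 replicate 2 and E14 SF3 replicate 2. With signals under 100 raised to 100, the difference for SLC7A7 was 0.60 (adjusted p = 0.22) and that for SLC43A2 was 1.08. Of the 5 other probe sets of SLC38A1 above the filter, 3 had the same sign and 1 of these passed the test. None passed of the 3 others of SLC6A15 or the 1 other of SLC7A6.

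For serum in SF3 the differences were 1.02 ± 0.25 for SLC1A2 (adjusted p = 0.026), -0.43 ± 0.12 for SLC1A6 (0.049), 1.21 ± 0.27 for SLC6A4 (0.012), -0.71 ± 0.15 for SLC6A15 (0.008), -0.72 ± 0.20 for SLC7A10 (0.046), 1.44 ± 0.34 for SLC7A11 (0.02) and -0.61 ± 0.11 for SLC38A1 (0.0024). Among these, SLC1A6 no longer passed without any 1 of 10 of the 12 arrays (adjusted p = 0.057 to 0.14), that is, all but E7 SF3 replicate 1 and E14 SF3 replicate 2, and SLC7A10 without any 1 of 8 of the 12 arrays (adjusted p = 0.054 to 0.13), that is, all but E7 SF3 replicate 1, E7 SF3 with serum replicate 1, E14 SF3 replicate 2 and E14 SF3 with serum replicate 3. SLC1A2 did not pass without E7 SF3 replicate 3 (0.066), E7 SF3 with serum replicate 3 (0.061), E14 SF3 with serum replicate 1 (0.052) or E14 SF3 with serum replicate 2 (0.057), nor SLC7A11 without E7 SF3 replicate 2 (0.061), E7 SF3 with serum replicate 3 (0.058), E14 SF3 replicate 1 (0.054) or E14 SF3 with serum replicate 2 (0.066). For rcSF3 when serum was present they were 0.62 ± 0.15 for SLC6A15 (0.034) and 0.42 ± 0.11 for SLC38A1 (0.049). The call for SLC6A15 was lost without any 1 of 8 of the 12 arrays (adjusted p = 0.065 to 0.12), that is, all but E7 SF3 with serum replicate 2, E7 rcSF3 with serum replicate 3, E14 SF3 with serum replicate 1 and E14 rcSF3 with serum replicate 2, and that for SLC38A1 without any 1 of 11 of the 12 arrays (adjusted p = 0.051 to 0.15), that is, all but E7 rcSF3 with serum replicate 3. SLC6A15 and SLC38A1 had differences of opposite sign without and with serum. For serum in SF3, the other probe set of SLC7A11 above the filter gave 0.60 (adjusted p = 0.53). There, none passed of the 2 others of SLC1A6 or the 3 others of SLC6A15. Of the 5 others of SLC38A1, 4 had the same sign and 1 of these passed. For rcSF3 with serum present, none passed of the 3 others of SLC6A15 or the 5 others of SLC38A1.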

How the results depend on the processing

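Of 2595 values of transporter genes that passed the test, recomputed under other settings or with 1 array left out, 2142 kept their direction and passed, 445 kept their direction and no longer passed, and 8 changed direction. No value changed direction with an array left out, where 905 of 1164 passed. All 8 reversals came with the mean of all probe sets of a gene, dim ones included. They were SLC6A12 (-0.11 for rcSF3 at E7 and -0.05 for rcSF3 with serum at E7), SLC7A5 (-0.09 for rcSF3 at E14 and 0.10 for the interaction at E14), SLC38A1 (0.15 for rcSF3 at E14 and -0.11 for serum in rcSF3 at E14), SLC6A6 (0.23 for rcSF3 with serum at E14) and SLC7A10 (-0.02 for age in SF3 with serum). The cause was not tested.

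Counts of transporter genes that passed moved by over 1.5 times as follows. With quantile normalization, rcSF3 with serum present at E14 went from 1 to 2 and the interaction at E14 from 2 to 1. With no filter, the interaction at E7 went from 7 to 2, and 0 passed for rcSF3 with serum at E14, the interaction at E14 and age by rcSF3 with serum. With no variance trend, the interaction at E7 gave 1, rcSF3 at E14 gave 4, and the same 3 others gave 0. With the unmoderated analysis of variance, rcSF3 with serum at E7 gave 6 in place of 10, the interaction at E7 gave 1, rcSF3 at E14 gave 4, and those 3 others gave 0. With the mean of all probe sets, the interaction at E7 gave 1, rcSF3 at E14 gave 4, rcSF3 with serum at E14 gave 0, age in rcSF3 gave 9 in place of 15, age by rcSF3 gave 2 and age by serum 3 in place of 7 each, and age by rcSF3 with serum gave 0.

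With 1 array left out, the counts at E7 ranged from 22 to 26 for the 4 media, 11 to 15 for rcSF3, 16 to 18 for serum, 4 to 11 for rcSF3 with serum present, 10 to 13 for serum in rcSF3 and 1 to 6 for the interaction. At E14 they ranged from 16 to 19, 4 to 5, 11 to 14, 0 to 1, 9 to 12 and 0 to 2 in the same order. For age they ranged from 14 to 17 in SF3, 10 to 12 in SF3 with serum, 8 to 9 in rcSF3 with serum and 13 to 15 in rcSF3, and for age by rcSF3, by serum, and by rcSF3 with serum from 5 to 8, 3 to 7 and 0 to 2.

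Deviations of arrays with the same replicate number in different groups correlated by -0.10 to 0.21 at E7 and -0.12 to 0.28 at E14, with a mean of 0.05 at each age against -0.03 and -0.02 for arrays of other numbers. Only 6 of 18 at each age were above 0.1, so the numbers were not taken to pair the arrays. With the replicate number as a block, age by rcSF3 with serum gave 1 gene in place of 2, and the other counts stayed within 1.5 times. Over all probe sets the block raised the count in each comparison except the interaction at E14 (119 to 111), for example from 7314 to 7573 for serum at E7. Signals near the filter limit what dim genes can show, since SLC7A7, SLC38A7 and SLC43A2 had groups with all signals under 100.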
